A study of Homo sapiens with 34 samples.

Results

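In PC3 DM cells that received the ecSEcombo perturbation, the heterochromatin mark H3K9me formed highly ranked peaks on chromosome 8 that vector libraries lacked or held at lower ranks. The comparison used 5 of the 34 libraries in the series, chosen by sample title: 3 PC3 DM libraries of the ecSEcombo perturbation and, as their control, 2 PC3 DM vector libraries. PC3 DM is a line from a prostatic adenocarcinoma, known for carrying MYC on extrachromosomal DNA (ecDNA). By the labels, cells of both groups were transfected with 700 ng of sgRNA plasmid and collected at day 3, and 50000 nuclei per library went into CUT&Tag, in which an antibody brings a transposase to marked chromatin. The labels name the antibody anti-H3K9me without a degree of methylation, give no genome positions for the ecSE elements, and name neither the perturbations joined in the combination nor the protein that the guides recruit. They speak of lines derived from PC3 DM without saying what was introduced into them, and do not say whether replicates are separate cultures. Any p-value therefore covers variation among libraries that could be technical alone.

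Methylation of lysine 9 of histone H3 is the classical mark of silent chromatin, laid down by methyltransferases such as SETDB1 and read by HP1 proteins. KRAB zinc finger proteins bring it to chosen DNA through the corepressor TRIM28, and the same route is often borrowed in CRISPR-based silencing of enhancers. On ecDNA, clusters of enhancers known as super-enhancers sit on the same circles as oncogenes such as MYC.

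A site was a run of overlapping peaks taken from the 1000 best peaks of each of the 5 lists, ranked by q-value so that lists of unequal length weighed alike. It was called gained when all 3 combination lists and neither vector list held it, and lost when both vector lists and no combination list held it. Gained thus asks 3 lists to agree and lost only 2, so gained and lost numbers are not on an equal footing. Of 3797 sites, 19 were gained, or 0.5%, and 24 were lost, or 0.632%. On chromosome 8, 12 of 282 sites were gained, or 4.26%, and 2 were lost, or 0.709%. On the other chromosomes 7 of 3515 sites were gained, or 0.199%, and 22 were lost, or 0.626%. Gained sites were thus a larger share of the sites on chromosome 8 than elsewhere. The 12 sites lie in 5 stretches, however, so neighbouring sites are not independent. Counted in 5 kb bins, 6 were gained on chromosome 8 and 11 elsewhere, and no shares are given for bins. The lost share on chromosome 8 rests on 2 sites here, and it was above that of the other chromosomes at several other numbers of best peaks, as given with the shares by list length. These counts describe the lists and have no test, because the sites were chosen by their presence. Without the vector library of replicate 1, which stood apart in the way given next, 15 sites on chromosome 8 and 33 elsewhere were gained, against 12 and 7 with both. Absence was then required from 1 vector list only, a looser rule. No shares are given for this setting, so these counts do not show whether the contrast in shares holds.

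The combination lists held 102286, 24255 and 28001 peaks and the vector lists 18547 and 55454, so the ranges of the groups overlapped. Read totals were not used here and depth is unknown. The lowest local background, a value that rises with depth, was 0.249, 0.309 and 0.285 fragments in combination libraries and 0.405 and 0.186 in vector libraries. Pairs of libraries shared from 4.33% to 9.30% of the 1 kb bins that either covered, and the highest value was between combination replicate 2 and vector replicate 1. Vector replicate 1 lacked a peak that ranked 1 in all 3 combination lists and in vector replicate 2. That peak overlapped the upper end of RNU6-1, a gene of the U6 small nuclear RNA on chromosome 15 (67839939 to 67840045). The overlap was 14 to 15 bp in combination lists. In combination replicate 3 the peak ran from 67840031 to 67840307, so most of it lay beyond the gene. Among all 16 PC3 DM lists, 14 held it at rank 1, and only vector replicate 1 and ecSE6 replicate 1 had no peak there. U6 promoters commonly drive guides in plasmids, but the labels do not name the promoter used, and the part of plasmid DNA in this peak was not tested. Whether vector replicate 1, 1 of the 2 controls, took up plasmid like the other libraries was not tested either.

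The 12 gained sites on chromosome 8 fell into 5 stretches, 4 of them on the long arm, from 126505944 to 133732487 (all positions are on hg38). In order along the chromosome these were PRAG1 on the short arm, LOC105375750, the start of PVT1, the thyroglobulin gene TG, and a stretch in no gene whose nearest annotated gene was MTND2P7, 22252 bp away. Of the 12 sites, 9 had no peak at any rank in either vector list, 2 had one in 1 vector list and 1 had one in both. On other chromosomes each of the 7 gained sites still had a vector peak below rank 1000. Sites on chromosome 8 were 345 to 1810 bp wide, with a median of 740 bp, and the 7 elsewhere 671 to 1540 bp, with a median of 848 bp.

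**Figure D1:**
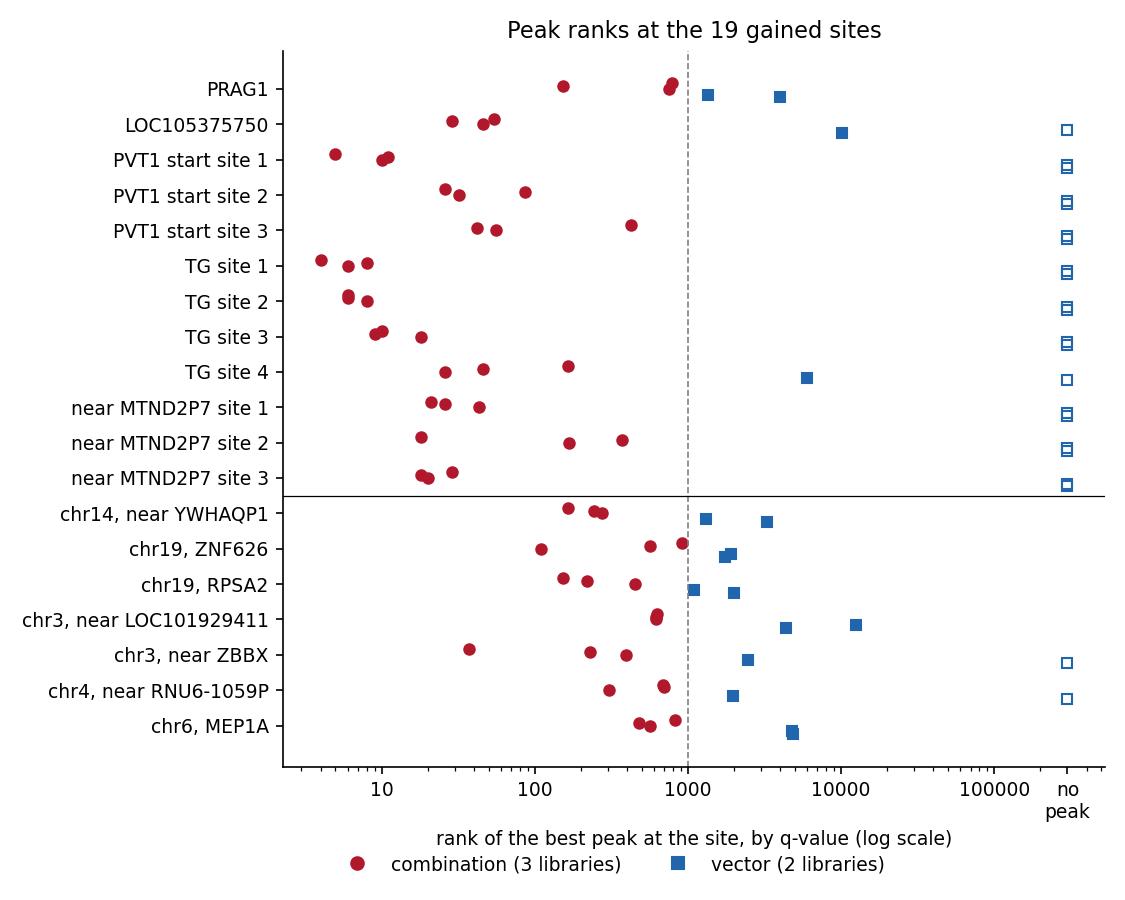
Rank of the best peak at each of the 19 gained sites (x axis, log scale, best on the left) in the 3 combination libraries (circles) and the 2 vector libraries (squares), with open symbols for a list without a peak and a dashed line at rank 1000. The 12 sites above the solid line are on chromosome 8, and 9 of them have no vector peak, while all 7 below it have at least 1.

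PVT1 (127794524 to 128101256) is the non-coding neighbour of MYC and is often amplified together with it. At its start 3 sites were gained between 127795749 and 127798671, 52798 bp beyond MYC. The strongest, 127795749 to 127796379, held the microRNA gene MIR1204 (127795962 to 127796028). It ranked 5, 11 and 10 in the combination lists, and neither vector list had a peak there. The summits lay at 127796035, 127796001 and 127796001. The site 127797237 to 127797988 ranked 26, 86 and 32 in combination lists, and 127798327 to 127798671 ranked 427, 42 and 56, again with no vector peak. Over the whole stretch peaks covered 1028, 1710 and 1554 bp in combination libraries, against 0 and 0 bp in vector libraries, a gap that the choice of the sites fixes. Covered lengths within stretches, around MYC and in COLO320 DM are from the lists as deposited, and those of flanks and whole genes in PC3 DM from the 18547 best peaks of each list, the length of the shortest. Peaks in the 100 kb on each side covered 1855, 945 and 1766 bp in combination libraries and 327 and 0 bp in vector libraries, without overlap. Over all of PVT1, the stretch included, peaks covered 2517, 4092 and 3058 bp with the combination and 327 and 162 bp with the vector.

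MYC itself, the transcription factor gene amplified on this ecDNA (127735434 to 127742951), stayed almost free of peaks. With 2 kb on each side, peaks covered 174, 0 and 478 bp in combination libraries and 0 and 0 bp in vector libraries. One combination library was thus as empty as the vector libraries.

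TG, which encodes the precursor of thyroid hormone (132866958 to 133134899), held 4 gained sites within 7680 bp, from 132876626 to 132884305, 5133675 bp beyond MYC. The site 132876626 to 132877758 ranked 4, 8 and 6 in combination lists. The site 132879379 to 132880692 ranked 6, 6 and 8, and 132882200 to 132882914 ranked 10, 9 and 18. Neither vector list had a peak at any of these 3 sites. Summits in the last of them fell at 132882554, 132882553 and 132882554, within 1 bp of each other. The site 132883250 to 132884305 ranked 166, 46 and 26 in combination lists, and in vector replicate 1 it had a peak at rank 5971. Peaks covered 3889, 3990 and 3593 bp of the stretch in combination libraries, against 624 and 0 bp in vector libraries. In the 100 kb flanks the groups overlapped, with 410, 0 and 702 bp in combination libraries and 804 and 405 bp in vector libraries. Over all of TG, the stretch included, the covered length was 3893, 3990 and 3801 bp with the combination and 624 and 338 bp with the vector.

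The stretch near MTND2P7, a pseudogene of a mitochondrial gene, ran from 133723970 to 133732487 and held 3 gained sites around a taller peak. The sites 133723970 to 133724582, 133725044 to 133725546 and 133731628 to 133732487 ranked 21, 26 and 43, then 18, 372 and 168, then 29, 18 and 20 in combination lists. Neither vector list had a peak at any of them. The summit of the last was at 133731898 in all 3 combination libraries. The taller peak between them, 133727154 to 133728884, ranked 2 in all 3 combination lists, behind the RNU6-1 peak, and 1554 and 477 in vector lists. It was not counted as gained, since vector replicate 2 held it among its 1000 best. Peaks covered 4538, 4405 and 4455 bp of the stretch with the combination and 1507 and 590 bp with the vector. The best vector peaks in the stretch ranked 78 and 116, with summits at 133730519 and 133730374. Here vector libraries had peaks of their own, whereas at PVT1 and at 3 of the 4 TG sites vector lists had no peak.

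At LOC105375750, an uncharacterised locus (126506437 to 126522360), the site 126505944 to 126506671 overlapped its lower end and lay 1228763 bp before MYC. It ranked 54, 29 and 46 in combination lists, while vector replicate 2 had a peak at rank 10151 and vector replicate 1 had none. Peaks covered 703, 699 and 713 bp of it in combination libraries and 0 and 97 bp in vector libraries. The site in PRAG1, a regulator of cytoskeletal signalling (8357720 to 8359529), was weaker. It ranked 782, 152 and 750 with the combination and 1347 and 3996 with the vector, and covered lengths of 1530, 515 and 1290 bp overlapped with 1084 and 540 bp. It is also the one gained site of chromosome 8 on the short arm.

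**Figure D2:**
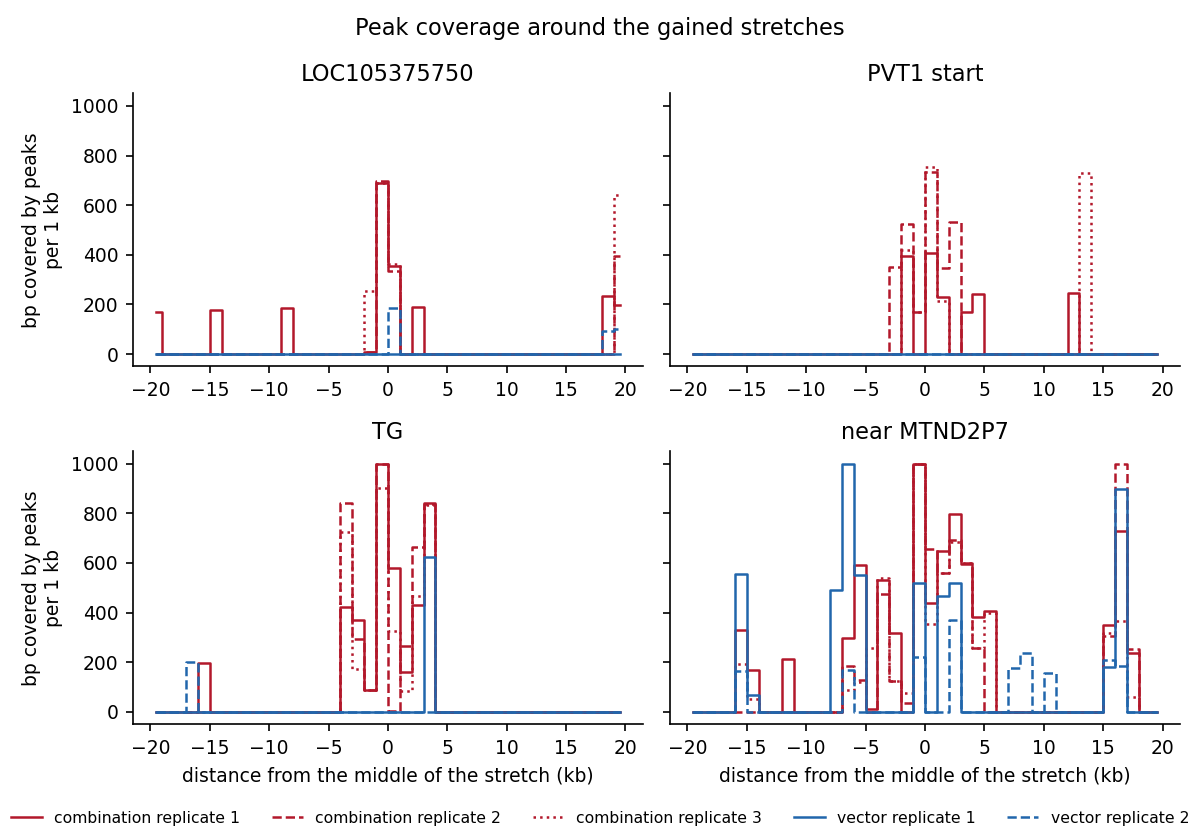
Base pairs covered by peaks per 1 kb (y axis) within 20 kb of the middle of each of the 4 gained stretches on the long arm (x axis, kb), for 3 combination libraries (red) and 2 vector libraries (blue). Within the PVT1 stretch both vector libraries stay at 0, and around MTND2P7 vector libraries have peaks of their own.

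Summit heights showed how strong these peaks were. A height is the number of fragments at the summit, recovered from the deposited fold and p-value, divided by the lowest local background of the same library, to scale for depth. At the MIR1204 site heights were 2226, 1389 and 1318 times that background in the combination libraries. In TG they were 2781, 1842 and 1789 at the site nearest the start of the stretch, and 2616, 2436 and 2031 at the next. The vector peak at the last TG site stood at 121, where the combination libraries had 1210, 1402 and 1342. The tall peak near MTND2P7 reached 5224, 5341 and 4585 with the combination and 279 and 370 with the vector. Its mean height was 5050 ± 407 with the combination (SD, n = 3) and 325 ± 64.7 with the vector (SD, n = 2), a 15.6-fold difference. The LOC105375750 site was lower, at 350, 291 and 299 with the combination against 69.8 in the 1 vector library with a peak. PRAG1 stood at 201, 184 and 134 with the combination and 101 and 118 with the vector. No input library was used here, so more copies of the DNA and more mark per copy cannot be told apart.

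The fold in the authors' lists, which sets the summit against its surroundings, gave another order. Over the 12 chromosome 8 sites the median fold per combination library was 3.07, 2.41 and 2.49, with single values from 1.56 to 8.20, and over the 7 sites elsewhere 11.1, 7.59 and 8.60. When lists were ranked by this fold, 0 sites were gained on chromosome 8 and 3 elsewhere, so the finding on chromosome 8 rests on ranking by q-value. The local background at the 12 sites had a median of 536, 687 and 563 times the lowest background in the combination libraries. Among the 1000 best peaks on chromosome 8 it was 19.2, 24.7 and 26.5 in the combination libraries and 19.6 and 10.3 in the vector libraries. At the tall peak near MTND2P7 the local background was 1367 ± 185 with the combination (SD, n = 3) and 105 ± 12.0 with the vector (SD, n = 2), 13.0-fold higher. The fold there was 4.25, 3.38 and 3.53 with the combination, overlapping with 2.43 and 3.69 with the vector. Summit height and recovered local background were therefore both higher in combination libraries at this peak. The window and control behind that background are not known, and how far neighbouring peaks enter it was not tested.

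Among the best peaks of each list the contrast was sharper. With the 100 best, 10 of 58 sites on chromosome 8 were gained, or 17.2%, and 0 of 261 elsewhere, or 0%. Lost were 1 on chromosome 8, or 1.72%, and 3 elsewhere, or 1.15%. The lost site on chromosome 8, 126596949 to 126597686 over LOC105375751, ranked 24 and 28 with the vector and 7071, 3918 and 490 with the combination. Its heights were 1009 and 939 with the vector and 591, 569 and 647 with the combination, without overlap. Of the 10 gained sites, 9 lay in the long-arm stretches. The tenth, 133756248 to 133756746 over the pseudogene MTCO1P49, ranked 83, 56 and 90 with the combination and 205 and 5626 with the vector. Its heights of 442, 397 and 397 with the combination were 1.69-fold above the 266 and 220 of the vector on average. With longer lists the contrast shrank. Gained shares on chromosome 8 and elsewhere were 8% and 0.312% with the 300 best, 1.75% and 0.163% with the 3000 best, 0.688% and 0.164% with the 10000 best and 0.417% and 0.165% at the length of the shortest list. Lost shares at the same steps were 2.4% and 0.623%, 1.62% and 0.608%, 0.904% and 0.53%, and 0.649% and 0.525%. Lost sites were thus also a larger share on chromosome 8 than elsewhere at these 4 steps. From 10000 peaks on more chromosome 8 sites were lost than gained, under rules that differ in the number of lists that must agree. In the lists as deposited 27 of 11009 sites on chromosome 8, or 0.245%, and 252 of 193323 elsewhere, or 0.13%, were gained, and 0.291% and 0.307% of the same sites were lost. There chromosome 17, at 0.303%, and chromosome 19, at 0.290%, had larger gained shares than chromosome 8. At the length of the shortest list, chromosomes 12, 17 and 19 came near it, with 0.380%, 0.370% and 0.373%. With the 300 best, chromosome 22 had 9.09%, from 1 gained site of 11.

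**Figure D3:**
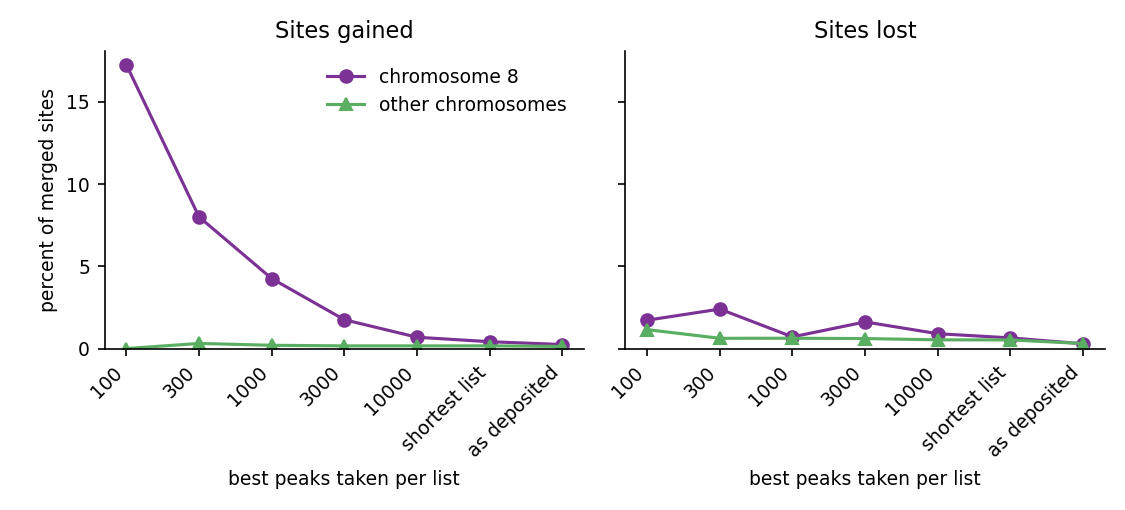
Percentage of merged sites gained (left) and lost (right) in combination against vector lists (y axis) by the number of best peaks taken per list (x axis), on chromosome 8 (circles) and other chromosomes (triangles). Gained sites on chromosome 8 make up 17.2% with the 100 best peaks, 4.26% with the 1000 best and 0.245% in the lists as deposited.

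Each of the 7 gained sites elsewhere still had a peak in at least 1 vector list. The best was on chromosome 14 (42785117 to 42786656), 20461 bp from the pseudogene YWHAQP1, with ranks of 164, 245 and 276 with the combination and 1310 and 3276 with the vector. A site on chromosome 3 (167155219 to 167155903), 22499 bp from ZBBX, ranked 37, 229 and 392 with the combination, while vector replicate 1 had it at rank 2457 and vector replicate 2 had no peak. Its heights were 181, 80.8 and 73.8 with the combination against 41.9 in that vector library. The site over RPSA2 and the pseudogene ZNF726P1 on chromosome 19 (23832147 to 23833134) ranked 154, 219 and 450 with the combination and 1098 and 1994 with the vector. The site in ZNF626, a zinc finger gene of a family known for this mark (chromosome 19, 20624655 to 20625325), ranked 915, 569 and 110 with the combination and 1898 and 1758 with the vector. Both sites had a peak in every list of both groups. The site in MEP1A, a metalloprotease gene on chromosome 6 (46842146 to 46842993), ranked 823, 476 and 568 with the combination and 4791 and 4860 with the vector. A site 10964 bp from LOC101929411 on chromosome 3 (102151740 to 102152741) ranked 628, 617 and 620 with the combination and 12519 and 4385 with the vector. The last, 211 bp from the pseudogene RNU6-1059P on chromosome 4 (95868975 to 95869666), ranked 689, 699 and 305 with the combination and 1973 in vector replicate 1, with no peak in vector replicate 2. The worst ranks of the 7 sites over the 3 combination lists ran from 276 to 915, against 8 to 782 over the 12 gained sites on chromosome 8, so the ranges overlapped. The value of 782 is that of the PRAG1 site, which also had a peak in both vector lists. Median heights over the 7 sites were 181, 107 and 98.4 in combination libraries, and over those with a peak 59.2 and 107 in vector libraries, so the groups overlapped. Near the limit of rank 1000, ZNF626 was included with a worst rank of 915 and MEP1A with 823, while PBX3 at 1044 and LINC02370 at 1168 were left out.

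Of the 24 lost sites, 23 kept a peak at a lower rank in at least 1 combination list within the 18547 best, and the other had one only in the longest list, that of combination replicate 1. The 3 ranked best in the vector lists were in PRKCZ, a kinase gene on chromosome 1 (2097058 to 2098110), in SBF2 on chromosome 11 (10044294 to 10044764) and in C4BPA, a complement regulator on chromosome 1 (207128096 to 207129010). At PRKCZ ranks were 16823, 12212 and 1629 with the combination and 226 and 278 with the vector. At SBF2 combination replicates 1 and 3 ranked 3826 and 4627 and replicate 2 had no peak, against 209 and 311 with the vector. At C4BPA ranks were 3047, 4972 and 4144 with the combination and 133 and 321 with the vector. Heights at C4BPA were 129, 87.2 and 77.3 with the combination and 121 and 150 with the vector, so they overlapped.

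Whole-library measures did not separate the groups. Chromosome 8 held 9.5%, 10.3% and 10.2% of the 1000 best peaks with the combination and 9.3% and 10.0% with the vector, a difference of 0.35 points (two-sided exact permutation test, p = 0.4). Among the 100 best peaks chromosome 8 held 25, 32 and 36 with the combination and 28 and 21 with the vector, a difference of 6.5 points with overlapping groups (exact permutation p = 0.4). Median width was 310.0, 539.5 and 376.5 bp with the combination and 718.5 and 231.0 bp with the vector (difference -66.1 bp, exact permutation p = 0.8). Median fold was 13.7, 8.05 and 9.15 with the combination and 7.11 and 10.4 with the vector (difference 1.52, exact permutation p = 0.8). The log10 of list length differed by 0.108 (exact permutation p = 0.8). With 3 libraries against 2 the smallest two-sided p is 0.2, and all Benjamini-Hochberg adjusted values of these exact tests were 1.

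Gene lists were compared over the 18547 best peaks of each list, the length of the shortest. Of 59094 RefSeq genes, 124, or 0.21%, had a peak in all 3 combination lists and in neither vector list, and 246, or 0.416%, the reverse. Here too the reverse asks fewer lists to agree, so these shares are not on an equal footing. For protein-coding genes these shares were 0.366% and 0.676%. Of 31 genes of 8q24, 14, 10 and 14 had a peak in combination lists and 14 and 13 in vector lists, and none was specific to the combination, since PVT1 and TG each held weaker peaks in both vector lists. Of 12 H3K9 methylation factors, such as TRIM28 and SETDB1, 2, 3 and 1 had a peak with the combination and 2 and 1 with the vector. Among 12 imprinted genes the counts were 5, 5 and 6 with the combination and 2 and 4 with the vector. Over all RefSeq genes the share with a peak was 8.55%, 8.96% and 9.16% with the combination and 9.10% and 9.04% with the vector. The imprinted counts differ by as little as 1 gene between single libraries of the groups and were not tested. Of 12 mesenchymal genes, 2, 1 and 1 had a peak with the combination and 1 and 2 with the vector. Genes common in expression constructs, such as ZNF10, gave 2, 2 and 3 of 7 with the combination and 2 and 2 with the vector. None of these lists had a member specific to either group.

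Libraries that the choice of gained sites did not use, the 11 of single perturbations, showed where the chromosome 8 sites were shared. Each of 9 of the 12 sites was among the 1000 best peaks in every list of 1 single perturbation and in no list of the other 3. At TG these were the 4 sites and the 3 ecSE2 lists, at PVT1 the 3 sites and the 3 ecSE6 lists, and near MTND2P7 2 sites and the 3 ecSE1 lists. The LOC105375750 site was in 3 of 3 ecSE6 lists, and in 2 of the 8 others, both of ecSE2. None of the 7 sites on other chromosomes was divided in this way, and ecSE7 had no such site. Some peaks of single lists spanned 2 neighbouring sites, so the 9 are not independent. When sites were merged over all 16 PC3 DM lists, 741 were held by 3 to 8 single lists and tested. Of these, 3, 4 and 6 were divided by ecSE1, ecSE2 and ecSE6, with 3, 3 and 4 of them on chromosome 8. Those gained with the combination were 2, 3 and 2. Over all 741 sites tested, 0 of 2964 comparisons, or 0%, passed (Fisher's exact test, smallest adjusted p = 1), with 31 at an unadjusted p under 0.05. The smallest possible p of 0.00606 would have been needed in 360 comparisons and was reached in 15. For ecSE7, with 2 lists, the smallest p of Fisher's exact test was 0.0545. A site held by these 2 lists alone was not tested, so ecSE7 could not be judged in this way.

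Heights in the matching single perturbation put the combination in scale. At the strongest PVT1 peak they were 2226, 1389 and 1318 with the combination and 3065, 2273 and 2562 with ecSE6, where the ranges do not overlap. At 127797237 to 127797988 heights were 1218, 1086 and 1089 with the combination and 2479, 1831 and 2193 with ecSE6, again without overlap. The ecSE6 replicate 1 peak there had its summit beyond the site, at 127798498. At the tall peak near MTND2P7 they were 5224, 5341 and 4585 with the combination and 3945, 6337 and 4879 with ecSE1, which overlap. In the TG stretch the peaks of best rank stood at 2781, 2436 and 1789 with the combination and 2518, 3155 and 3967 with ecSE2, overlapping as well. These peaks lay at different TG sites in different libraries. Site by site, the ranges overlapped at 132876626 to 132877758 and at 132879379 to 132880692. At 132882200 to 132882914 they did not, with 1857, 1987 and 1462 with the combination and 2518, 2438.5 and 3340 with ecSE2. There the ecSE2 replicate 1 peak had its summit beyond the site, at 132884082. The ecSE2 peaks were 2012, 2004 and 2087 bp wide and reached into the last TG site, 132883250 to 132884305. The combination heights given above for that last site were lower than those of these ecSE2 peaks. The LOC105375750 site stood at 350, 291 and 299 with the combination and 527, 561 and 691 with ecSE6, without overlap. These differences were not tested, since the sites were chosen in the combination lists.

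**Figure D4:**
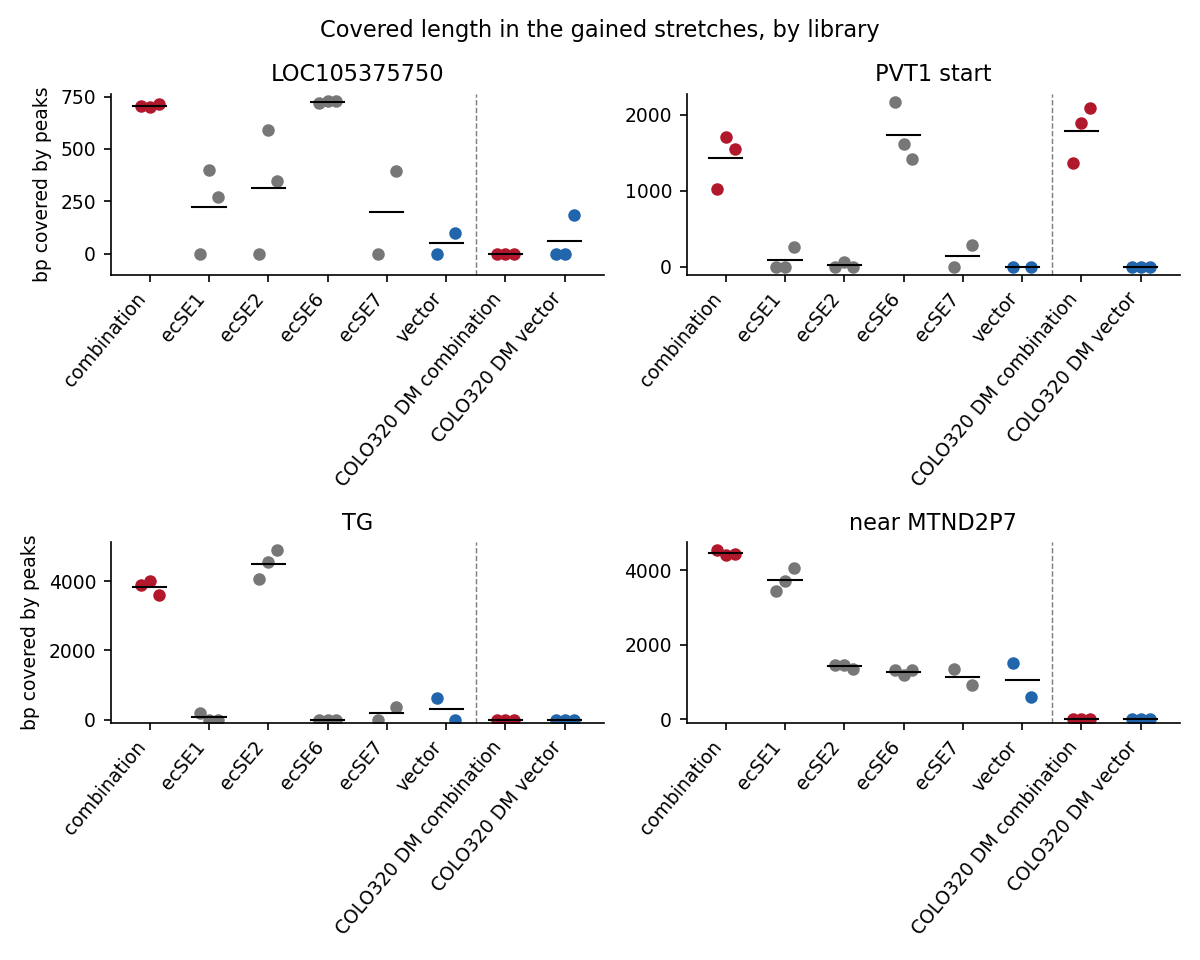
Base pairs covered by peaks (y axis) in each of the 4 long-arm stretches, 1 point per library and a line at the group mean, for PC3 DM libraries left of the dashed line and COLO320 DM libraries right of it. At PVT1 the 3 combination and 3 ecSE6 libraries of PC3 DM and the 3 combination libraries of COLO320 DM lie between 1028 and 2172 bp, while both vector groups lie at 0.

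In COLO320 DM, a colorectal line that also carries MYC on ecDNA, the PVT1 stretch was the one long-arm stretch also marked by the combination. All 3 PVT1 sites were among the 1000 best peaks of 3 of 3 combination lists and of 0 of 3 vector lists there. Peaks covered 1371, 1892 and 2095 bp of the stretch in COLO320 DM combination libraries and 0, 0 and 0 bp in its vector libraries. The summits were at 127796027, 127796001 and 127796001. Over the whole of PVT1 the covered lengths overlapped, at 14493, 24288 and 30873 bp with the combination and 15531, 13693 and 24440 bp with the vector. At TG and near MTND2P7 no COLO320 DM list of either group had a peak in the stretch. MYC with 2 kb on each side had 4162, 4075 and 3661 bp covered in COLO320 DM combination libraries and 0, 227 and 562 bp in its vector libraries, unlike the PC3 DM values above. The labels do not say whether elements of the same name are the same DNA in both lines, and the difference between the lines in these covered lengths was not tested.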

How the data were processed

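The files were 1 narrowPeak list per library on hg38, called per library. The submitters' processing notes name MACS2 (version 2.2.7.1), bedtools, SAMtools, Trim Galore (version 0.6.6) and Bowtie2 (version 2.3.5), without saying what each did. The sources used here do not state the MACS2 settings or a control library. The deposited lists hold, per peak, a display score (not used), a fold (by the authors, summit over local background as a linear ratio), and the authors' −log10 p-value and −log10 q-value, whose lowest values lie just above 3. These are each peak's own values and were used to rank peaks within a list.

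Autosomes and the X chromosome were kept. The 1000 best peaks per list, by −log10 q and then fold, were merged where they overlapped by 1 bp or more. Fragments at the summit and the local background were recovered from fold and −log10 p with a tolerance of 0.0005 at the whole number, for 100% of peaks in the 5 lists to 3 digits. Where more than 1 fragment number matched, the closest was taken. This held for at most 1.07% of peaks in the 5 lists. In PC3 DM ecSE1 replicate 2 it held for 15.0%, and in ecSE2 replicate 1 for 16.7%, so heights in those 2 lists are less certain. The lowest background was the 1% quantile. Depth is unknown, so no counting interval is given. Gained sites within 50 kb formed a stretch. Genes came from RefSeq on GRCh38.p14, the same build, from a table that holds whole genes, so no position is assigned to an exon, intron or UTR. Of the 32 genes of the 8q24 list, 31 were found.

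Named sites were the 12 gained on chromosome 8 and up to 12 elsewhere with the best worst rank over the combination lists, and the 3 lost sites with the best worst rank over the vector lists, with MYC and PVT1. Sites of the 100 best and RNU6-1 were described after their values were seen. Members, lists and rules were chosen with earlier results of these data known. For values per library, exact permutation tests (two-sided) were run. Presence in single perturbation lists was compared with Fisher's exact test, on sites in 3 to 8 of 11 lists, with Benjamini-Hochberg adjustment over all sites and perturbations at 0.05. Alternatives were other numbers of best peaks, a q-value limit, 500 bp of overlap, 5 kb bins, ranking by fold, each library left out and a replicate block. Steps were tested on simulated data. Scripts ran under scipy 1.17.1, pandas 2.3.3 and numpy 2.4.6 with Python 3.11.15, and plots were drawn with matplotlib 3.10.9. The COLO320 DM single perturbation lists were not used. The result of 1 gene list is not reported here.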

Additional observations from a re-analysis of the deposited data

How the results depend on the processing

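On chromosome 8 the 12 gained sites became 10, 10, 13 and 18 with the 100, 300 and 3000 best peaks and with the length of the shortest list, 24 with a −log10 q of at least 5, 27 in the lists as deposited, 6 with an overlap of 500 bp, 6 with 5 kb bins, 0 when ranked by fold, and 13 to 18 without 1 library. The 7 gained elsewhere became 0, 3, 18, 123, 191, 252, 3, 11 and 3 under the same settings in that order, and 15 to 51 without 1 library. Requiring no vector peak at any rank, a setting added after seeing the data, left 9 on chromosome 8 and 0 elsewhere. The 2 lost sites on chromosome 8 became 1 with the 100 best, 12 with the 3000 best, 28 with the shortest length, 32 as deposited, 20 with the q limit, 1 when ranked by fold, and 3 to 57 without 1 library. The 22 lost elsewhere became 3, 6, 67, 391 and 593 with the 100, 300 and 3000 best, the shortest length and as deposited, 311 with the q limit, 1 with an overlap of 500 bp, and 23 to 721 without 1 library, both 57 and 721 without vector replicate 1. The cause of these shifts was not tested, apart from the number of peaks and lists each setting takes.

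The difference in the chromosome 8 share was 6.5 points with the 100 best, turned to -1.87 points when ranked by fold, and ran from 0 to 0.7 without 1 library. Those in log10 list length (-0.130 to 0.346), median width (-310 to 178 bp) and median fold (-0.173 to 3.18) changed sign without 1 library. Single perturbation sites called remained at 0 with 100 or 3000 best peaks and without any 1 library. In the main setting the smallest possible p would have been needed in 360 comparisons and was reached in 15. A count of 0 is thus no sign of stability. Replicate numbers did not pair the libraries (correlation of deviations -0.062, a single value, since with 2 replicates a group both pairs must give the same one). The replicate block gave differences of 0.25 points, 0.19 in log10 list length, -50.0 bp and 2.09 in fold (exact permutation within pairs, smallest p = 0.5). Unknown depth and 2 vector libraries limit all of these values.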

Other observations

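At RNU6-1 heights of the peak were 67537, 8236 and 12860 times the lowest background in PC3 DM combination libraries, and 13362 in vector replicate 2 with no peak in vector replicate 1. In COLO320 DM the peak ranked 1, 1 and 1 with the combination and 4, 17 and 21 with the vector, at heights of 4905, 3948 and 2944 with the combination and 532, 296 and 257 with the vector. In ecSE6 replicate 1, the other PC3 DM library with no peak there, the PVT1 stretch still ranked 3, with 2172 bp covered. The part of plasmid DNA in this peak was not tested.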
